A study of Mus musculus with 9 samples.

Results

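The sites described here are the places where HOXA13 and HOXD13 CUT&RUN peaks were called in and around Cic and Fbrs, a pair of genes on mouse chromosome 7. They were chosen by measured values, because a site at each gene had been among the strongest of every wild-type list when peaks were ranked by −log10 p. All intervals and summits lying in either gene body or within 10 kb of it were taken (GENCODE annotation of GRCm38, the assembly of mm10). Overlapping intervals of the 9 peak lists were merged into sites, which gave 10 sites in the windows, 7 at Cic and 3 at Fbrs, of 193935 merged sites in all. In CUT&RUN an antibody brings a nuclease to the protein, and the released fragments are sequenced.

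The libraries were made from distal forelimb cells of B6CBAF1 embryos, with tissue of several embryos pooled per library. Wild-type (wt) embryos at E12.5 were profiled 3 times with each antibody, and wt HOXD13 replicate 3 was reanalysed from earlier work. HOXA13 was also profiled in 2 libraries of the II1TDOM 542 line (542) at E12.5, and HOXD13 in 1, whose title gives E11.5 where its collection protocol gives the day of the other samples. This line is homozygous for a single-copy insert on chromosome 2 that holds the enhancer II1, an HBB promoter and lacZ, placed in the T-DOM domain next to the HoxD cluster, and it descends from pronuclear injection. No insert is carried by the wt embryos. The 542 reads were mapped to a mutant genome and the wt reads to mm10, so genotype and mapping genome cannot be told apart, although chromosome 7 has the same coordinates in both. The lists held 23939 to 117719 intervals, from 36.9 to 65.5 M read ends. Peaks were called without a control library, and signal that does not depend on the antibody was not analysed here. Peak lists hold no expression values, so the tissue was taken from its label.

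HOXA13 and HOXD13 are homeodomain transcription factors of the developing autopod, where they are required for digit formation, and they recognise an AT-rich core that ends in TAAA. Cic encodes Capicua, an HMG-box repressor that acts with ATXN1 and ATXN1-like and keeps Etv, Dusp and Spry genes low until receptor tyrosine kinase signalling through ERK relieves it. It is known to be made as a long and a short isoform from separate starts. Fbrs encodes fibrosin, which with its relatives AUTS2 and fibrosin-like 1 belongs to variant Polycomb complexes built on PCGF3 or PCGF5.

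At each gene a main site stood far above the others by −log10 p. The Cic main site covered chr7:25267404-25268493 and held the start of the gene, which runs from 25267704 to 25294159 on the plus strand. Its highest summit had a median position of 25268043, in the first intron, 339 bp past the GENCODE start. The nearest RefSeq start of Cic lies downstream of this summit, at 25268379, within the site. The Fbrs main site covered chr7:127477756-127478994, just before the gene body at 127479199 to 127491711, also on the plus strand. Its highest summit had a median position of 127478453, which is intergenic in GENCODE, 746 bp before the start of Fbrs, and lies 38 bp past a predicted RefSeq start of the same gene at 127478415.

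The sequence below the summits is shown because motif content differed between the main sites. It is taken from the RefSeq copy of GRCm38, plus strand. At the Cic main summit (chr7:25267918-25268168, intron in GENCODE and outside RefSeq exons) the capitals mark matches to a HOX13 form, read here as its reverse complement. At the first Cic summit (chr7:25267546-25267646, upstream of the start) they mark a HOX13 form and then an E-box.
Cic main summit: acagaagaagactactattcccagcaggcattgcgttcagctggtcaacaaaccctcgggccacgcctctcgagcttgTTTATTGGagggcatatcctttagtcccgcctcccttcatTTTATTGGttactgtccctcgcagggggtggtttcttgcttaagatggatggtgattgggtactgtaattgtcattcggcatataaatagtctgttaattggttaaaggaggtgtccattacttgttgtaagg
Cic first summit: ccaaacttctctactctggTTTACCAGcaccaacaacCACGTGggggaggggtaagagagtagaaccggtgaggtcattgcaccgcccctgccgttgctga

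The first Fbrs summit (chr7:127478048-127478198, upstream of both annotated starts) also held a HOX13 form, in capitals. The 30 bases at the Fbrs main summit (chr7:127478438-127478467) held none of the motifs searched.
Fbrs first summit: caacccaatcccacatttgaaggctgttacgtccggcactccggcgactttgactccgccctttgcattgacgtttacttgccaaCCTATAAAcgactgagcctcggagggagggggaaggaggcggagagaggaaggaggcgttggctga
Fbrs main summit: ccccttgcacctttcaaggctacgggaggc

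Past its main summit the Fbrs site held 7 copies of a 9-base word in the same orientation, the most frequent 9-base word in the site. All 7 copies are shown, from chr7:127478480-127478504, chr7:127478523-127478547, chr7:127478627-127478651, chr7:127478718-127478742, chr7:127478760-127478784, chr7:127478790-127478814 and chr7:127478888-127478912, with the word in capitals. They lie in an exon predicted by RefSeq.
Fbrs copy 1: aaatctccTTAAAGGGGtgggtacc
Fbrs copy 2: cgccagtcTTAAAGGGGacagcaga
Fbrs copy 3: aattcatcTTAAAGGGGaagtgaca
Fbrs copy 4: tggactctTTAAAGGGGtggcctct
Fbrs copy 5: agacacttTTAAAGGGGaagtcgtg
Fbrs copy 6: cgccccttTTAAAGGGGtggtcctt
Fbrs copy 7: gagtcgtcTTAAAGGGGccgggggc

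Of the 10 sites in the windows, 5 were called in all 9 lists, 3 at Cic and 2 at Fbrs. Over the genome 6.41% of merged sites were called in all 9 lists. Of these 5 sites, 3 covered a GENCODE start of a protein-coding transcript, against 28.2% of all sites called in 9 lists. A sixth site, over the downstream start of Cic, was called in 8 lists. The other 4 sites were called in 1 or 2 lists. They were a site near Erf at chr7:25258074-25258310, a site in an intron of Cic at chr7:25279902-25280393, a site in a coding exon of Prr19 at chr7:25303102-25303452 and a site in an intron of Fbrs at chr7:127485885-127486084. The summits nearest the window edges were 496 bp inside and 863 bp outside upstream of Cic, 914 bp inside and 2058 bp outside downstream of Cic, 1756 bp inside and 19216 bp outside upstream of Fbrs, and 15704 bp inside and 1366 bp outside downstream of Fbrs.

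**Figure D1:**
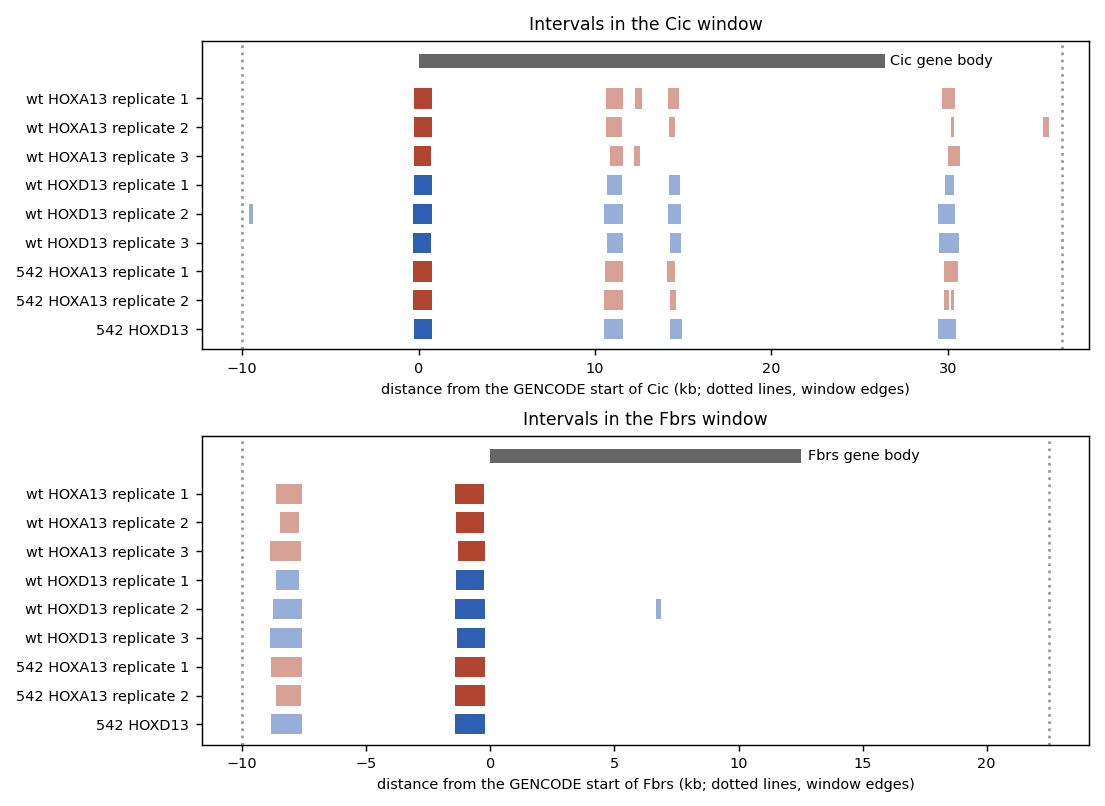
Peak intervals in the Cic (top) and Fbrs (bottom) windows, as bars along the distance from the GENCODE start in kb, 1 row per library. HOXA13 is red and HOXD13 blue, the main site is in full colour, and the grey bar is the gene body. The main site is the interval over the start of Cic and the interval just before Fbrs, and it is present in all 9 rows.

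The ranks by −log10 p chose these sites in the wt lists and are given there as a description. The Cic main site ranked 3, 2 and 2 in the wt HOXA13 lists and 2, 2 and 3 in the wt HOXD13 lists. The Fbrs main site ranked 2, 3 and 3 with HOXA13 and 3, 3 and 2 with HOXD13. The 542 lists took no part in the choice. Cic ranked 4 and 4 in the 542 HOXA13 lists and 3 in the 542 HOXD13 list, and Fbrs ranked 2, 3 and 4 in the same order. Both main sites were thus within the first 4 intervals of all 9 lists, although the number of intervals per list differed.

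Pileup, the number of extended read ends over the summit, was solved from −log10 p and fold enrichment and is therefore not independent of the choice. It gave ranks of 2 to 9 for Cic and 2 to 10 for Fbrs. At Cic the pileup was 3500, 1766 and 764 read ends in the wt HOXA13 replicates, 1306, 4881 and 506 in the wt HOXD13 replicates, 2424 and 1534 in the 542 HOXA13 replicates and 6040 in the 542 HOXD13 library. At Fbrs it was 3477, 1589 and 742, then 1083, 4134 and 652, then 2593 and 1522, and 3369, in the same order of libraries. The replicate 3 libraries were the lowest with each wt antibody at both sites. Per M read ends of the library, the Cic pileup was 39.3 ± 23.2 (SD, n = 3) with HOXA13 and 43.1 ± 34.9 (SD, n = 3) with HOXD13 in wt, and the Fbrs pileup was 37.8 ± 23.4 and 38.3 ± 27.2, so that the spread between replicates exceeded the differences between the antibodies. Duplicate reads, where kept, add to these pileups.

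Fold enrichment, the pileup over a local background, ordered the sites differently. Cic had fold enrichments of 11.8 to 20.8 and ranks from 3 to 761 by this measure over the 9 lists. Fbrs had 16.6 to 19.0 and ranks from 4 to 83. Without a control library, the local background that divides the pileup came from the same library, the reads of the peak included. This background was high at the main sites. At the Cic main site in wt HOXA13 replicate 1 it was 218 read ends, against 5.91 over the genome. At chr7:25278242-25279309, in an intron of Cic, the same library had a local background of 25.2. The pileup at the main site was 592 times the genome background. How far the peak's own reads raised the local background was not tested.

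**Figure D2:**
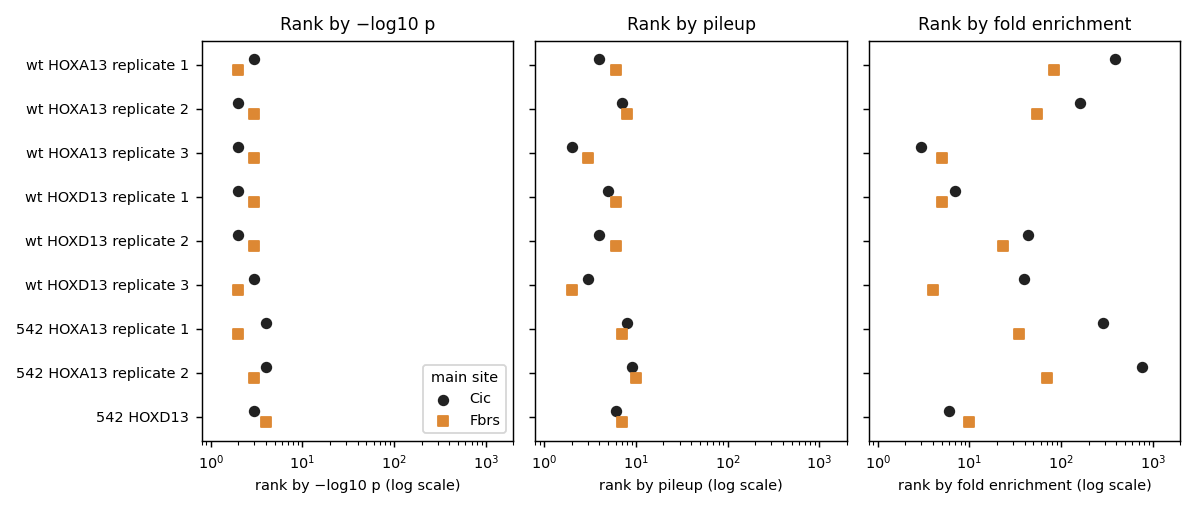
Rank of the Cic (black circles) and Fbrs (orange squares) main sites in each library by −log10 p, pileup and fold enrichment, on log axes where 1 is the strongest interval. Ranks by −log10 p stay between 2 and 4, and ranks by fold enrichment reach 761 for Cic and 83 for Fbrs.

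Both main sites were wide. The Cic interval measured 1066, 1058 and 970 bp in the wt HOXA13 lists and 1039, 1073 and 1034 bp in the wt HOXD13 lists. It was 1086 and 1031 bp in the 542 HOXA13 lists and 1026 bp in the 542 HOXD13 list. The Fbrs interval measured 1153, 1093 and 1092 bp, then 1094, 1203 and 1118 bp, then 1213 and 1212 bp, and 1239 bp. The 3 Fbrs intervals of the 542 lists were wider than any of the 6 wt intervals, which reached at most 1203 bp.

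Since the median interval of a list ranged from 393 to 536 bp, width was compared as the percentage of the list's intervals that are narrower. This was 93.5 ± 3.83% (SD, n = 3) at Cic with HOXA13 and 95.7 ± 1.99% (SD, n = 3) with HOXD13 in wt, a difference of −2.19 points (exact permutation test, two-sided p = 0.4, adjusted p = 0.8 over 8 tests). It was −0.154 points without HOXA13 replicate 3 and −3.96 points without HOXA13 replicate 2. At Fbrs the values were 95.6 ± 2.2% and 97.2 ± 1.33% (difference −1.55 points, exact permutation p = 0.5, adjusted p = 0.8). Between wt and 542 with HOXA13 the difference was 1.63 points at Cic and −0.282 points at Fbrs (exact permutation p = 0.6 and 1, adjusted p = 0.8 and 1, n = 3 and 2). The groups overlapped in all 4 comparisons, and the smallest p these designs allow is 0.1.

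The position of the highest summit was far more constant at Fbrs than at Cic. In the 9 libraries the Fbrs summit lay between 127478448 and 127478454. It was at 127478453, 127478452 and 127478453 with HOXA13 and at 127478452, 127478452 and 127478448 with HOXD13 in wt, a mean difference of 2 bp (exact permutation p = 0.3, adjusted p = 0.8). The Cic summit lay between 25267950 and 25268078. It was at 25268043, 25268048 and 25268078 with HOXA13 and at 25267984, 25267988 and 25268064 with HOXD13, so that HOXD13 replicate 3 fell among the HOXA13 values. The mean difference of 44.3 bp did not pass the test (exact permutation p = 0.3, adjusted p = 0.8). Without HOXD13 replicate 3 it was 70.3 bp and the groups did not overlap (exact permutation p = 0.1, the smallest possible). Within same-numbered pairs HOXA13 lay 59, 60 and 14 bp further downstream for replicates 1, 2 and 3. With HOXA13 the 542 summits at 25268035 and 25268053 differed from wt by 12.3 bp on average (exact permutation p = 0.6, adjusted p = 0.8; 1.5 bp without wt HOXA13 replicate 3), and the 542 HOXD13 summit lay at 25267950, the most upstream of all.

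Each main site held several summits. At Fbrs there were 3 in all 9 libraries. The first lay between 127478113 and 127478166 and the last between 127478729 and 127478756, and the last reached 0.375 to 0.435 of the highest pileup. At Cic there were 2 summits in 8 libraries and 3 in the 542 HOXD13 library. The first Cic summit lay between 25267586 and 25267645, upstream of the GENCODE start, and the distance to the highest summit ranged from 364 to 450 bp.

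The first Cic summit was the lower of the pair by an amount that differed between the antibodies in wt. Its pileup relative to the highest summit was 0.520, 0.478 and 0.25 in the wt HOXA13 replicates and 0.650, 0.659 and 0.698 in the wt HOXD13 replicates. The groups did not overlap. The mean was 0.416 ± 0.145 (SD, n = 3) with HOXA13 and 0.669 ± 0.0252 (SD, n = 3) with HOXD13, a difference of −0.253 (exact permutation p = 0.1, the smallest this design allows, adjusted p = 0.4 over 4 tests). This comparison was chosen after the summits had been seen. In the 542 line the ratio was 0.458 and 0.453 with HOXA13, within the range of the wt HOXA13 libraries, and 0.839 in the HOXD13 library (for HOXA13 against wt, difference −0.0394, exact permutation p = 1, adjusted p = 1).

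At Fbrs the same ratio was 0.835, 0.825 and 0.759 with HOXA13 and 0.748, 0.762 and 0.776 with HOXD13 in wt. The groups overlapped, and the difference between the means of 0.806 ± 0.0413 and 0.762 ± 0.0141 (SD, n = 3 each) did not pass the test (difference 0.0440, exact permutation p = 0.3, adjusted p = 0.6). Here HOXA13 had the higher mean. The 542 values were 0.809 and 0.815 with HOXA13 and 0.693 with HOXD13, and for HOXA13 the difference between wt and 542 was −0.00576 (exact permutation p = 1, adjusted p = 1).

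**Figure D3:**
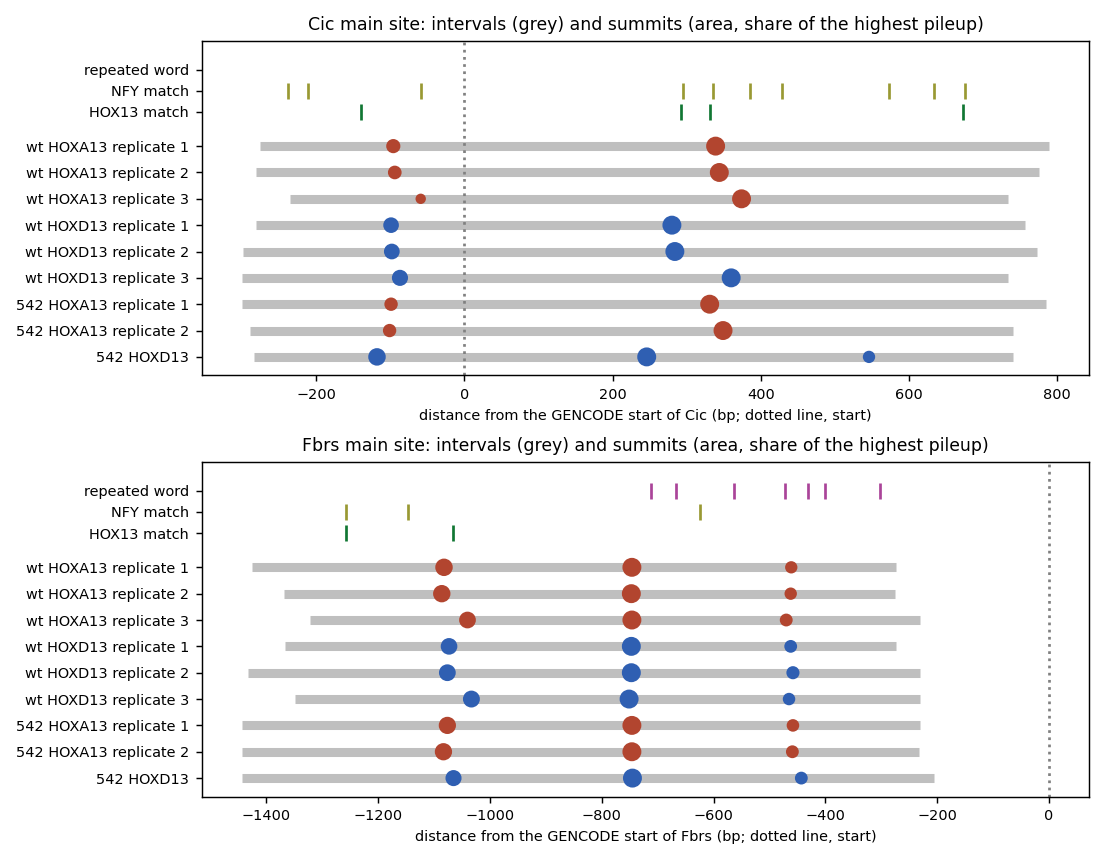
Intervals (grey) and summits (circles, area in proportion to the share of the highest pileup) of the Cic and Fbrs main sites in each library, as the distance from the GENCODE start in bp, with HOXA13 in red and HOXD13 in blue. Ticks above mark the starts of HOX13 and NFY matches and of the repeated word. The middle Fbrs summits line up within 127478448 to 127478454, and the 7 copies of the repeated word lie to their right.

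**Figure D4:**
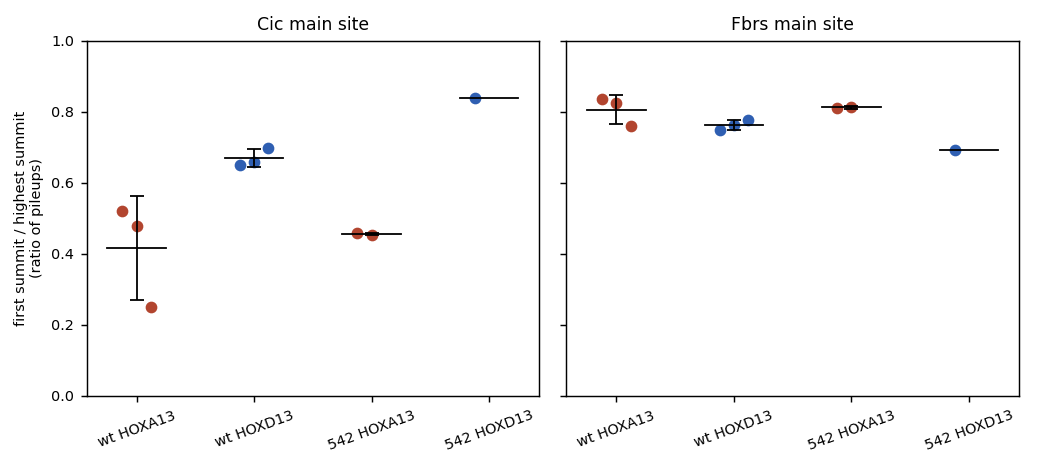
Pileup of the first summit divided by that of the highest summit at the Cic and Fbrs main sites, 1 point per library, with the mean as a line and the SD as an error bar where a group has more than 1 library. At Cic the wt HOXA13 points (0.25 to 0.520) lie below the wt HOXD13 points (0.650 to 0.698), and at Fbrs they overlap.

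Motifs were searched on both strands in 200 bp around the highest summit, and their presence was set beside the share of all main summits of the same list. The HOX13 forms were CCNATAAA, CCNGTAAA, CTNATAAA and CTNGTAAA. The Cic window held 2 matches in all 9 libraries, where 22.2 to 37.3% of the windows of a list held at least 1. In 50 bp around the summit 6 of the 9 libraries had a match, where 7.44 to 17.0% of windows did. Both were CCAATAAA on the minus strand and began 47 and 7 bp before the median summit. The Fbrs window held no HOX13 match in any library, also when it was widened to 500 bp. The nearest Fbrs matches were CCAATAAA and CCTATAAA, which began 511 and 320 bp before the median summit, the latter beside the first summit.

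CCAAT, the box recognised by the trimeric factor NFY, is contained in the form CCAATAAA, so its matches overlap the HOX13 matches. The Cic window held 2 to 4 CCAAT boxes, and the Fbrs window held none, where 28.8 to 33.7% of windows held at least 1. Neither window held a Capicua site (TGAATGAA or TGAATGGA, in 1.92 to 2.35% of windows), an AP-1 site (TGACTCA, 3.0 to 3.8%), a CRE (TGACGTCA, 0.450 to 1.36%), an E-box (CACGTG, 2.80 to 4.69%), an ETS site (CCGGAAGT, 0.543 to 1.45%), an SP/KLF box (GGGCGGG, 5.00 to 12.6%), a YY1 site (AAGATGGCG, 0.306 to 0.636%), an NRF1 site (0.180 to 0.486%) or a Kaiso site (0.0756 to 0.218%). The Cic site as a whole held 1 Capicua form, TGAATGGA, at chr7:25268408-25268415, which began 365 bp past the median summit. A match is only a match of letters.

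Copies were also counted in 1000 bp about the middle of each interval, a count chosen after the sequence had been seen. The Cic site held 10 CCAAT boxes, where the median interval held 1. In each list only 10 to 17 intervals, that of Cic included, held at least as many (0.0142 to 0.0460%). The Cic site also held 4 HOX13 forms, and 0.960 to 2.15% of intervals held at least as many. At Fbrs there were 3 CCAAT boxes, with at least as many in 19.1 to 22.8% of intervals. There were also 2 HOX13 forms, with at least as many in 16.8 to 27.2%. The Fbrs site held 6 or 7 copies of TTAAAGGGG, depending on the list, and in no list did any other interval hold as many. This word was picked because it was the most repeated there, so its rarity elsewhere is a description. The Cic site held none. In the reference 6.24% of the Cic main site and 11.6% of the Fbrs main site was masked as repeats. GC over the whole site was 56.1% at Cic and 57.3% at Fbrs. In 200 bp around the highest summit it was 44 to 51.5% at Cic and 56.5 to 57% at Fbrs. The list medians for such windows were 41 to 49%, and the part of GC in the motif matches was not tested.

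The remaining sites called in most lists were far weaker by −log10 p and pileup. At chr7:25278242-25279309, in an intron of Cic and over a start predicted by RefSeq at 25278387, the pileup was 143, 75 and 47 read ends in the wt HOXA13 replicates and 70, 288 and 78 in the wt HOXD13 replicates. It was 158 and 87 in the 542 HOXA13 replicates and 371 in the 542 HOXD13 library. In the wt HOXA13 lists 10.4, 16.2 and 20.9% of intervals ranked higher by −log10 p, and in the wt HOXD13 lists 6.80, 1.46 and 4.08%, so that HOXD13 ranked the site higher in each replicate and the groups did not overlap. The means were 15.8 ± 5.24% and 4.11 ± 2.67% (SD, n = 3 each), and their difference of 11.7 points had the smallest p this design allows (exact permutation p = 0.1, adjusted p = 0.3 over 6 tests chosen after the ranks had been seen).

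Just downstream of Cic, chr7:25297132-25298384 covered the start of Pafah1b3, a catalytic subunit of a platelet-activating factor acetylhydrolase, at 25297986 on the GENCODE annotation. Here 37.3, 74.8 and 51.3% of intervals ranked higher in the wt HOXA13 lists and 24.2, 5.10 and 2.07% in the wt HOXD13 lists. The groups did not overlap, with means of 54.5 ± 18.9% and 10.4 ± 12.0% (SD, n = 3 each; difference 44.0 points, exact permutation p = 0.1, adjusted p = 0.3). In the 542 line it was 28.4 and 28.5% with HOXA13 (difference from wt 26.0 points, exact permutation p = 0.2, adjusted p = 0.4), and 0.799% with HOXD13. In 542 HOXA13 replicate 2 the site was broken into 2 intervals, and the 28.5% is that of the better ranked. The other, chr7:25297876-25298075, had 47.1%, within the range of the wt HOXA13 values, so the difference from wt rests on this choice. In wt HOXA13 replicate 2 the interval of this site was only 200 bp wide with a pileup of 21 read ends. Fold enrichment at this site ran from 2.88 to 15.6. The highest value came from the 542 HOXD13 library, where the Cic main site had 19.6. In that library the pileup was 329 read ends at this site and 6040 at the Cic main site.

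Thus 2 of the 3 weaker sites called in every list were ranked higher in all wt HOXD13 lists than in any wt HOXA13 list. Over the genome this held for 2.52% of the 13391 sites called in the 6 wt lists and for 6.83% of those that cover a GENCODE start of a protein-coding transcript, and the opposite held for 2184 sites. The wt HOXD13 lists were on the whole shorter, with 23939, 76838 and 37589 intervals against 86941, 58642 and 57367 with HOXA13, and the part of list length in these percentages was not tested.

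The third of these sites, chr7:127470309-127471623, lay upstream of Fbrs over the start of Prr14, which encodes a protein that ties heterochromatin to the nuclear lamina. There 5.90, 14.1 and 18.1% of intervals ranked higher in the wt HOXA13 lists and 3.56, 1.25 and 32.3% in the wt HOXD13 lists. The groups overlapped, because HOXD13 replicate 3 gave the lowest standing of all (difference 0.323 points, exact permutation p = 1, adjusted p = 1). Its fold enrichments ran from 3.87 to 12.8. It was 754 to 1292 bp wide, which is of the same order as the main sites.

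The site over the second GENCODE start of Cic at 25282179, chr7:25281812-25282618, was missing only from wt HOXA13 replicate 3. In the other wt HOXA13 lists 17.6 and 19.0% of intervals ranked higher, against 5.75, 1.49 and 4.59% with HOXD13. It was 30.4 and 61.4% in the 542 HOXA13 lists and 2.97% in the 542 HOXD13 list. The values of the antibodies in wt did not overlap, but the site was left out of the tests, which took sites called in every list.

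The site most like each main site in its ranks over the 9 lists was the other main site, with a mean absolute difference of 0.179 in log10 rank, as the choice of both by rank fixes in part. Next for both came chr15:103304544-103306231, nearest to Gpr84, which encodes a fatty acid receptor, with ranks of 5 to 41. The others were the same for Cic and Fbrs. These were the site at chr19:7039340-7040607, whose summit lay 139 bp before the start of the co-chaperone gene Stip1 (ranks 8 to 71), and 2 wide mitochondrial intervals nearest to mt-Cytb and mt-Nd1, which encode subunits of respiratory complexes III and I. The mitochondrial intervals ranked between 4 and 1277 and between 2 and 1593.

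The genes that work with Capicua and fibrosin were often near a peak as well. None came close to the rank of Cic and Fbrs, which were chosen for that rank. Of 10 partners and targets of Capicua (Atxn1, Atxn1l, Etv1, Etv4, Etv5, Dusp4, Dusp6, Spry2, Spry4 and Spred2), 10 had a summit in all 9 lists within the gene or 10 kb of it. Of 9 fibrosin partners in the Polycomb complexes (Pcgf3, Pcgf5, Fbrsl1, Auts2, Rnf2, Ring1, Rybp, Yaf2 and Csnk2b), 6 did. Over all 20628 protein-coding genes 41.8% did. Within the gene body alone 7 of the 19 genes did, against 21.1% of all genes, and at a fold enrichment of at least 5 it was 5 of 19 against 8.99%. The median gene length was 15399.5 bp in the Capicua list and 52658 bp in the fibrosin list, against 17836.5 bp over all genes, and its part in the counts was not tested. No gene of either list was without a summit in every list. The best median ranks were those of Auts2, with a median of 98 and a range of 22 to 236 over a gene of 1106012 bp, Etv5, an ETS factor that Capicua represses, with a median of 429 (54 to 776), and Fbrsl1, with a median of 961 (581 to 5590). The lists differ in length, and by the median percentage of intervals ranked higher Etv1 (1.28%), Spry4 (1.55%) and Dusp4 (1.58%) stood above Fbrsl1 (1.67%).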

How the data were processed

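CUT&RUN peak lists of 9 libraries were used as deposited. According to the study, the authors trimmed reads with cutadapt, mapped them with Bowtie (wt on mm10, 542 on the mutant genome), filtered with SAMtools, marked duplicates with Picard, converted with bedtools and called peaks per library with MACS2 without a control. Duplicates were kept in the listed commands, although they are also said to be removed. The deposited columns hold positions, an integer score, the fold enrichment (a ratio of pileup to local background) and, for each summit, a −log10 p-value and a −log10 q-value from the authors' peak caller.

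Rows sharing an interval were joined, and the row of largest −log10 p gave the main summit. From these values pileup and background were solved, using fold enrichment together with −log10 p. At least 99.9% of pileups came out whole within 0.01 read ends. Depth followed from the lowest background. The method was tested on simulated data, in which every −log10 p was below those of the main sites. Intervals overlapping by at least 1 bp were merged, and chromosome 2 past the insert was left out, which removed 2 of 21 list genes. Coordinates are 1-based. Windows reached 10 kb beyond each gene body.

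Groups came from the titles. Tests were two-sided exact permutation tests over libraries, adjusted within each family by Benjamini-Hochberg. Replicates are separate pools per the study. The members and gene lists were chosen with earlier results of these data known. Named were the main site of each gene (best median rank in wt), other sites called in at least 6 lists, the 5 most alike sites, the 3 pathway genes of best median rank and those without a summit. Sites called in fewer lists, summit ratios, copies of words and percentages of lists ranked higher were added after values were seen. Alternatives were a minimum fold enrichment of 5, other ranking and width measures, autosomes and X only, summits within 100 bp, gene bodies only, motif windows of 50 and 500 bp, each replicate left out and the replicate number as a block.

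To check the pairing, presence in 19470 sites merged from the top 10000 intervals was centred on each antibody's mean. Same-numbered wt libraries had correlations of 0.111, 0.144 and 0.349. The numbers in the titles were used as pairs, which this check bears out only for replicate 3. HOXA13 replicate 1 with HOXD13 replicate 2 reached 0.219, so replicates 1 and 2 are not told apart. Gene annotation was GENCODE basic and RefSeq on GRCm38. Analyses used Python 3.11.15, numpy 2.4.6, pandas 2.3.3, scipy 1.17.1, numba 0.67.0, pysam 0.24.0, matplotlib 3.10.9 and samtools 1.23.1.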

Additional observations from a re-analysis of the deposited data

How the results depend on the processing

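No test in the report passed 0.05, and none did under any alternative, in designs that cannot go below 0.1. The replicate block changed no call. It reversed the sign of the differences between wt and 542 with HOXA13 in the summit ratio at Cic (0.0437) and at Fbrs (0.0179) and in the width percentage at Fbrs (0.907 points), and left the other blocked differences with their sign. The 542 HOXA13 libraries have no replicate 3, so in those comparisons the block only left out wt HOXA13 replicate 3. The reversed values are those without that library. Whether wt and 542 libraries pair by number was not checked. The Cic width difference between wt and 542 reversed to −2.09 points at a fold enrichment of at least 5 and to −0.0383 on log2 width. The Cic and Fbrs width differences between antibodies became −5.73 and −4.67 points, and the Fbrs difference between wt and 542 −5.28 points, at a fold enrichment of at least 5. With each replicate left out in turn, the Cic width difference between wt and 542 ranged from −0.138 to 3.66 points, the Fbrs width difference from −1.77 to 1.21 points, the Cic and Fbrs summit ratio differences between wt and 542 from −0.0915 to 0.0437 and from −0.0200 to 0.0179, and the difference between antibodies at the Prr14 site from −5.24 to 10.3 points. The Cic and Fbrs width differences between antibodies ranged from −3.96 to −0.154 and from −2.50 to −0.364 points. The Cic summit position difference ranged from 30.3 to 70.3 bp between antibodies and from 1.5 to 21.3 bp between wt and 542, where it was 1.5 bp under the block, 3.33 bp without 542 HOXA13 replicate 1 and 21.3 bp without 542 HOXA13 replicate 2. The Cic summit ratio difference between antibodies stayed between −0.305 and −0.170, the latter without wt HOXA13 replicate 3. Over the 542 lists the median ranks of 4 for Cic and 3 for Fbrs became 288 and 35 by fold enrichment, 8 and 7 by pileup, and 3 and 2 on autosomes and X. The sites in the Cic window numbered 4 at a fold enrichment of at least 5, 11 with summits within 100 bp and 4 in the gene body alone, and those in all lists numbered 1 at the stricter enrichment and 1 with summits within 100 bp. In the Fbrs window 1 site in all lists was left at the stricter enrichment, and the gene body alone held 1 site and 0 in all lists. Of the 19 pathway genes, 7 kept a summit in all lists within the gene body and 5 at the stricter enrichment. Over all protein-coding genes the shares were 21.1% and 8.99%. The sites called in 1 or 2 lists had pileups of 16 to 55 read ends, and the part of depth in these calls was not tested.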
